A study of Homo sapiens with 9 samples.

Results

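NOG encodes noggin, a secreted protein that binds bone morphogenetic proteins (BMPs) and keeps them from their receptors. It was described here with the BMP ligands BMP2 and BMP4 and 7 genes that BMP signalling controls: ID1, ID2, ID3, SMAD6, SMAD7, SMAD9 and BAMBI. These 10 genes were chosen by name, with the levels of NOG in the same libraries already known, and were matched by Entrez number to a table of 16750 genes. Values were analysed for 8 of them, and all 8 passed the filter on low values. BMP2 and BMP4 were not analysed here. Because the choice rested on these libraries, the levels of the 8 genes are given as a description. Any call given for them comes from the fit of all genes and is no test of these 8 genes.

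The libraries came from PANC-1, a cell line from a human pancreatic ductal carcinoma. The cells had been transduced with a lentivirus carrying no insert (vector), the transporter gene SLC22A10 (SLC22A10_OE) or the transporter gene SLC22A15 (SLC22A15_OE). Both genes belong to the SLC22 family of organic ion transporters, and transport by their products was not measured here. All 3 groups carried the lentiviral backbone and were selected and grown in puromycin. Each group had 3 RNA-seq libraries, numbered 1 to 3 in the deposited columns. The labels call the lines stable clones and do not say whether the libraries of a group were separate clones or cultures. The sample titles end in A1, A2 and B1 in each group, which may mark 2 libraries of 1 set and 1 of another, and these endings could not be matched to the column numbers. Values with n = 3 therefore count libraries, and p-values cover only spread among the libraries as made, and that spread may be technical. For the same reason, an effect of the transporter and a difference between transduced lines cannot be told apart.

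BMPs bind pairs of type I and type II receptor kinases, which phosphorylate SMAD1, SMAD5 and the SMAD9 product. These join SMAD4 and switch on target genes in the nucleus, among which the ID genes are the most widely used readout. ID proteins lack a DNA-binding region and hold E proteins, a class of transcription factors, away from DNA. The pathway also switches on its own brakes, the inhibitory SMADs encoded by SMAD6 and SMAD7 and the decoy receptor encoded by BAMBI, and noggin acts outside the cell before any of these.

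Library totals ran from 28.4 to 42.9 M reads, so a level of 1 CPM (reads per 1000000 of the scaled library size the authors used) stood for 27.8 to 43.4 reads in a library. SLC22A10 was at 80.5, 91.4 and 84.4 CPM in its own line, with 1 read in the vector libraries together and no read in SLC22A15_OE. SLC22A15 was at 78.3, 73.3 and 76.1 CPM in its own line, with 6.11 ± 0.571 CPM in vector and 3.84 ± 0.357 in SLC22A10_OE (SD, n = 3 each). Of 8 ductal and PANC-1 markers, 6 were analysed, and their summed level was 3464 to 3610 CPM in vector, 3878 to 4064 in SLC22A10_OE and 2860 to 2998 in SLC22A15_OE. VIM alone made up most of that sum, at 3091, 3390.3 and 2621 CPM, and KRT7 was under 1 CPM in each group mean. The keratins differed between the groups, with KRT19 at 73.2, 216 and 70.2 CPM, KRT8 at 91.4, 88.9 and 47.5 and KRT18 at 162, 99.2 and 95.4 in vector, SLC22A10_OE and SLC22A15_OE. Of 5 leukocyte markers 1 was analysed, CD14, at 0.563 to 0.689, 7.52 to 9.14 and 0.806 to 1.02 CPM in the same order of groups, 1 endothelial marker of 4, CDH5, at 0.901 to 1.45, 6.24 to 7.65 and 2.52 to 2.86, and 3 fibroblast markers of 7 summed to 4.13 to 5.46, 6.62 to 8.60 and 1.22 to 1.43. Within the fibroblast sum COL1A1 was at 0.536, 5.01 and 0.414 CPM and COL1A2 at 2.94, 1.09 and 0.0961. Acinar and islet markers were not analysed here, and the part of other cells in the values below was not tested. In bulk RNA, fewer cells of a type and less RNA per cell cannot be told apart.

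The 250 bases upstream of the start that RefSeq annotates are shown for the ID genes, which serve as readouts of the pathway, and for BAMBI, a brake of the pathway. Sequences and coordinates are from RefSeq on GRCh38.p14, written 5′ to 3′ on the strand of the gene. The windows are chr20:31605039-31605288 (plus strand) for ID1, chr2:8681806-8682055 (plus) for ID2, chr1:23559502-23559751 (minus) for ID3 and chr10:28677271-28677520 (plus) for BAMBI. The gene positions given further on are from GENCODE release 29, which places some starts elsewhere: the ID2 and ID3 windows lie inside its gene bounds and the BAMBI and ID1 windows run past its starts. Capitals mark a match, on either strand, to GGCGCC or CAGAC, short sequences that SMAD proteins are known to bind.
ID1: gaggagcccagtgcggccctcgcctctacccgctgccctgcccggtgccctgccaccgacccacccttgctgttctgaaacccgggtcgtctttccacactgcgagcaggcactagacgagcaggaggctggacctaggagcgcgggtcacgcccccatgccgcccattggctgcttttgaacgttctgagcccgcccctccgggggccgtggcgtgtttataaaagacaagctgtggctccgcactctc
ID2: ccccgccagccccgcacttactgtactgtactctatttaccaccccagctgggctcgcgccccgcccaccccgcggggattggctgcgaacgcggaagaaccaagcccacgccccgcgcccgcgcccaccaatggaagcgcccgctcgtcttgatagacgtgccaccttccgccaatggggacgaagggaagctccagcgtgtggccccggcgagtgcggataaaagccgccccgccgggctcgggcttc
ID3: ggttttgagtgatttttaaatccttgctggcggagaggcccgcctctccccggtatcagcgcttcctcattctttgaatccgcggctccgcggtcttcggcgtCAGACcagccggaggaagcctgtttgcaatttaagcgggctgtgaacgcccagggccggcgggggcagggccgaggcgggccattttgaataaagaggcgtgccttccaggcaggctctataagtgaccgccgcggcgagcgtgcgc
BAMBI: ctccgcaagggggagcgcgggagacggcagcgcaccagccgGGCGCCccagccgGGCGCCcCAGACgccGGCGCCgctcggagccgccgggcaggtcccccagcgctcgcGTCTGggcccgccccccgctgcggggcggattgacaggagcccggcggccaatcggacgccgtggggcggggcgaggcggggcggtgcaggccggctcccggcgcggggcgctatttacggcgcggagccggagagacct
The BAMBI window held 3 GGCGCC matches, starting 209, 196 and 181 bases upstream of the start, and 2 CAGAC matches at 189 and 140, none overlapping another. ID3 held 1 CAGAC match at 147 bases upstream, and in ID1 and ID2 these letters were not in the window. Of the windows not shown, those of SMAD6 and SMAD9 held neither sequence. The SMAD7 windows, which differ by annotated start, held 2, 1 and 0 CAGAC matches and no GGCGCC. Of 35116 RefSeq promoter windows of this length, 16.4% held GGCGCC and 38.0% held CAGAC. An E-box (CANNTG), the kind of site that E proteins bind, stood in 61.8% of windows, in the ID2 window at 205 bases upstream and in none of the other 3 shown. GC content was 66.0% for ID1, 69.2% for ID2, 62.0% for ID3 and 81.2% for BAMBI.

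NOG was far lower in SLC22A10_OE than in vector and between these levels in SLC22A15_OE. The gene lies on chromosome 17 (GRCh38, 56593699 to 56595590, plus strand), as a single exon of 1892 bases. It was at 35.6, 27.7 and 30.7 CPM in vector libraries 1, 2 and 3, at 3.80, 4.78 and 3.31 CPM in SLC22A10_OE and at 15.4, 13.4 and 13.3 CPM in SLC22A15_OE. No library of 1 group reached the range of another, and the SLC22A10_OE libraries held 406 NOG reads in all against 3302 in vector. Mean levels were 31.4 ± 3.97 CPM in vector, 3.96 ± 0.748 in SLC22A10_OE and 14.1 ± 1.19 in SLC22A15_OE (SD, n = 3 each). The mean was thus 7.91-fold lower than vector in SLC22A10_OE and 2.23-fold lower in SLC22A15_OE. As log2 fold changes of CPM + 1, a scale that understates the change of low genes, these were -2.71 and -1.10 (SE 0.12 each), and SLC22A15_OE stood 1.61 above SLC22A10_OE.

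**Figure D1:**
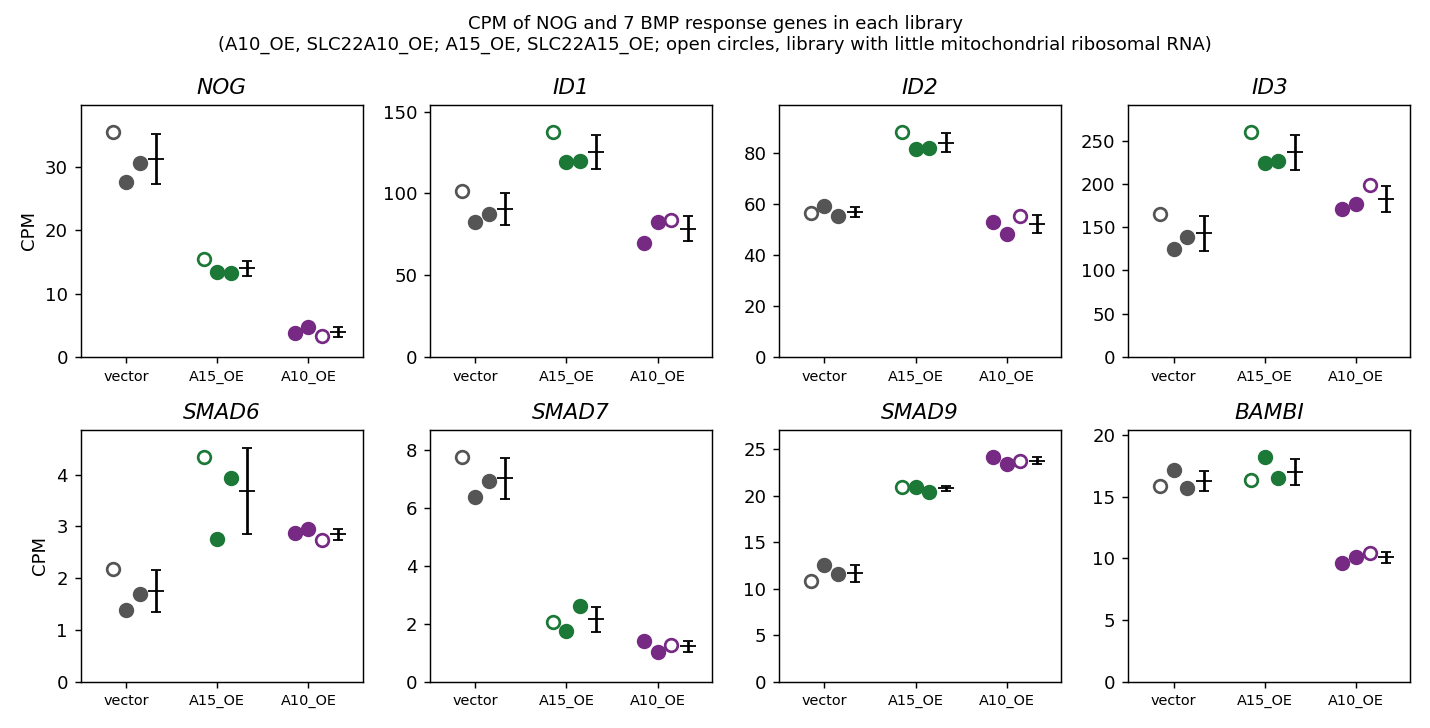
Level in CPM (vertical axes from 0, a scale per gene) of NOG and 7 BMP response genes in each of the 9 libraries, by group along the horizontal axis. Points are libraries, open where mitochondrial ribosomal RNA took a small share of the reads, and the cross line and bar beside them are the mean and SD. NOG is highest in vector and lowest in SLC22A10_OE, while ID1, ID2 and ID3 are highest in SLC22A15_OE.

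The ID genes did not follow the inverse of NOG. Levels of ID1, ID2 and ID3 were highest in SLC22A15_OE, where NOG was in the middle, and in SLC22A10_OE, where NOG was lowest, only ID3 was above vector. ID1 (chromosome 20, 31605283 to 31606515, plus strand) was at 101, 82.4 and 87.1 CPM in vector libraries 1 to 3, at 69.5, 82.4 and 83.5 CPM in SLC22A10_OE and at 138, 119.5 and 119.6 CPM in SLC22A15_OE. Vector and SLC22A10_OE overlapped for ID1, and the SLC22A15_OE libraries stood above both. Means were 90.3 ± 9.89, 78.5 ± 7.77 and 126 ± 10.5 CPM in vector, SLC22A10_OE and SLC22A15_OE. The log2 fold change against vector was -0.20 (SE 0.09) in SLC22A10_OE and 0.47 (SE 0.09) in SLC22A15_OE, with 0.67 between the overexpressing lines.

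ID2 gave the same order of group means as ID1. It was at 56.3, 59.0 and 55.1 CPM in vector, at 53.0, 48.1 and 55.0 CPM in SLC22A10_OE and at 88.2, 81.4 and 82.0 CPM in SLC22A15_OE. The highest SLC22A10_OE library lay just under the lowest vector library, and SLC22A15_OE was clear of both. Means of 56.8 ± 2.03, 52.1 ± 3.55 and 83.9 ± 3.74 CPM gave log2 fold changes against vector of -0.13 (SE 0.06) in SLC22A10_OE and 0.55 (SE 0.06) in SLC22A15_OE. ID2 (chromosome 2, 8678845 to 8684453, plus strand) overlaps ID2-AS1 on the opposite strand, and the sources used here do not say whether counting used strand, so reads of the pair may be mixed.

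ID3, the most abundant of the 3, was higher than vector in both lines. It was at 165, 125 and 139 CPM in vector libraries, at 171, 177 and 199 CPM in SLC22A10_OE and at 260.4, 224 and 226 CPM in SLC22A15_OE. The 3 groups did not overlap, with vector lowest and SLC22A15_OE highest. Means were 143 ± 20.1, 182 ± 15.1 and 237 ± 20.3 CPM, with log2 fold changes against vector of 0.35 (SE 0.09) and 0.73 (SE 0.09) and of 0.38 between the lines. ID3 lies on chromosome 1 (23557918 to 23559794, minus strand).

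The brakes did not move as a group. SMAD7, which blocks BMP and TGF-beta receptors alike, was low in both lines and kept the order of NOG. SMAD7 (chromosome 18, 48919853 to 48952052, minus strand) was at 7.78, 6.39 and 6.95 CPM in vector libraries, at 1.40, 1.03 and 1.26 CPM in SLC22A10_OE and at 2.06, 1.77 and 2.63 CPM in SLC22A15_OE. The groups did not overlap. Means of 7.04 ± 0.704, 1.23 ± 0.185 and 2.15 ± 0.436 CPM were 5.73-fold lower than vector in SLC22A10_OE and 3.27-fold lower in SLC22A15_OE, or -1.85 and -1.36 (SE 0.12 each) on the log2 scale of CPM + 1. These SMAD7 levels rest on 742, 125 and 247 reads over the 3 libraries of vector, SLC22A10_OE and SLC22A15_OE.

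SMAD6, the inhibitory SMAD that acts mainly on BMP signals, went the other way from SMAD7 at a low level. It was at 2.18, 1.38 and 1.70 CPM in vector, at 2.87, 2.95 and 2.73 CPM in SLC22A10_OE and at 4.35, 2.76 and 3.94 CPM in SLC22A15_OE. Both overexpressing lines were above vector and overlapped each other. Mean SMAD6 levels of 1.75 ± 0.406, 2.85 ± 0.108 and 3.68 ± 0.827 CPM gave log2 fold changes of 0.49 and 0.76 (SE 0.14 each) against vector. Only 184 reads over the vector libraries carried SMAD6, and its gene (chromosome 15, 66702228 to 66782848, plus strand) overlaps AC013564.1 on the same strand.

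BAMBI, a receptor-like protein without a kinase that blunts TGF-beta and BMP signals, was lower in 1 line. It was at 15.8, 17.2 and 15.7 CPM in vector, at 9.64, 10.1 and 10.5 CPM in SLC22A10_OE and at 16.3, 18.3 and 16.6 CPM in SLC22A15_OE. Vector and SLC22A15_OE overlapped, and SLC22A10_OE lay below both. With means of 16.3 ± 0.804, 10.1 ± 0.418 and 17.0 ± 1.05 CPM, the BAMBI mean was 1.61-fold lower than vector in SLC22A10_OE, and the log2 fold changes were -0.64 and 0.06 (SE 0.08 each). BAMBI lies on chromosome 10 (28677342 to 28682939, plus strand).

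SMAD9, whose product (SMAD8) is a receptor-activated SMAD of the BMP branch and whose gene is itself a BMP target, was the mirror of NOG in order. It was at 10.8, 12.5 and 11.6 CPM in vector, at 24.2, 23.4 and 23.7 CPM in SLC22A10_OE and at 20.96, 20.96 and 20.5 CPM in SLC22A15_OE. The 3 groups did not overlap, although the overexpressing lines lay close together. Means of 11.6 ± 0.875, 23.8 ± 0.389 and 20.8 ± 0.290 CPM made SMAD9 2.04-fold higher than vector in SLC22A10_OE and 1.79-fold higher in SLC22A15_OE, with log2 fold changes of 0.97 and 0.79 (SE 0.07 each). The span of SMAD9 (chromosome 13, 36844831 to 36920765, minus strand) overlaps that of SMAD9-IT1 on the same strand. Shared exons were not looked for, so whether reads of the pair are mixed is unknown.

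**Figure D2:**
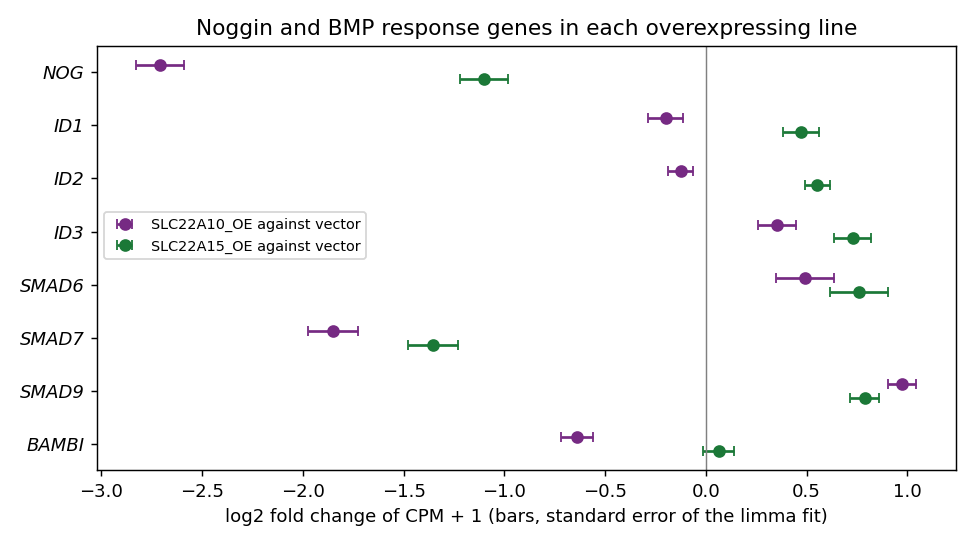
Log2 fold change of CPM + 1 against vector (horizontal axis) for NOG and the 7 BMP response genes (vertical axis) in SLC22A10_OE and SLC22A15_OE. Points are estimates from the limma fit of 9 libraries and bars their standard errors. ID1, ID2 and BAMBI lie left of 0 in SLC22A10_OE and right of it in SLC22A15_OE, and NOG and SMAD7 lie left in both.

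The comparison the gene set was chosen for was whether genes of BMP output stood higher where noggin was lower. Among the 7 response genes, SMAD9 alone stood in the order opposite to NOG with all groups separate, and SMAD7 stood in the order of NOG itself. Of all 14554 genes tested, 7.72% had the opposite order and 6.39% had the order of NOG by the same criterion. ID3 and SMAD6 were above vector in both lines but highest in SLC22A15_OE. ID1, ID2 and BAMBI had their lowest mean in SLC22A10_OE, the line with the least NOG.

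Of the 8 genes, 6 were past an adjusted p of 0.05 in SLC22A10_OE against vector (3 higher and 3 lower), where 67.2% of all genes were, 34.7% higher and 32.5% lower. ID1 and ID2 were the 2 not past it, and 7 of 8 had groups that did not overlap, against 69.2% of all genes. In SLC22A15_OE against vector 7 were past it (5 higher and 2 lower, all but BAMBI), against 20.4% of all genes, 10.8% higher and 9.58% lower, and 7 had separate groups against 34.7%. Between SLC22A15_OE and SLC22A10_OE 7 were past it (6 higher in SLC22A15_OE and SMAD9 lower, all but SMAD6), against 62.9%, 30.8% higher and 32.1% lower, and 7 were separate against 67.4%. The 8 genes were chosen with values of these 3 groups in view, so these calls are no test of them. Nothing is read from the counts. Comparisons against vector share the vector libraries.

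Centring each library on its median gene moved SLC22A10_OE against vector by -0.12 on the log2 scale for all genes. Relative to that shift ID1 stood at -0.32, ID2 at -0.25 and ID3 at 0.23 in SLC22A10_OE, and all 8 genes kept the directions given above. Over all genes, the calls in SLC22A10_OE changed from 5047 higher and 4728 lower to 3875 and 6233 with centring, and between the lines from 4484 and 4674 to 5798 and 3713. The difference of SMAD9 between the lines, -0.19, was no longer past the threshold with centring, and the same held without any 1 of the 6 libraries of those lines.

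Each group had 1 library in which mitochondrial ribosomal RNA was a small share of reads: 0.00958% in vector 1, 0.0151% in SLC22A10_OE 3 and 0.0111% in SLC22A15_OE 1, against 0.0454% to 0.0843% in the other 6. That library had the highest ID1 of its group in all 3 groups, 19.6%, 9.96% and 15.2% above the mean of the other 2 in vector, SLC22A10_OE and SLC22A15_OE. It also had the highest ID3 in each group, by 24.8%, 14.7% and 15.6%. NOG was 21.8% higher than its partners in vector 1 and 15.5% higher in SLC22A15_OE 1, and lower than them in SLC22A10_OE 3. Among the other 6 libraries ID1 was at 82.45 and 87.1 CPM in vector, 69.5 and 82.40 in SLC22A10_OE and 119.5 and 119.6 in SLC22A15_OE, and ID3 at 125 and 139, 171 and 177, and 224 and 226. The order of the groups was the same without the 3 libraries.

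Levels can be set against each other between genes only per length. Per kb of exon (the union of exons in GENCODE release 29), the vector means were 114 CPM per kb for ID3, 73.3 for ID1, 26.5 for ID2, 16.6 for NOG, 8.66 for BAMBI, 2.08 for SMAD9, 1.55 for SMAD7 and 0.457 for SMAD6. NOG thus stood between ID2 and BAMBI in vector. In SLC22A10_OE, NOG was at 2.09 CPM per kb, below BAMBI at 5.37 and SMAD9 at 4.26, and SMAD7 came last at 0.271, below SMAD6 at 0.743. In SLC22A15_OE, NOG came after BAMBI at 7.43, with BAMBI at 9.08 and SMAD9 at 3.72. The ID genes kept the order ID3, ID1, ID2 in each group, at 146, 63.7 and 24.3 CPM per kb in SLC22A10_OE and at 189, 102 and 39.2 in SLC22A15_OE. Within a group, neighbours in these orders did not overlap between libraries.

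**Figure D3:**
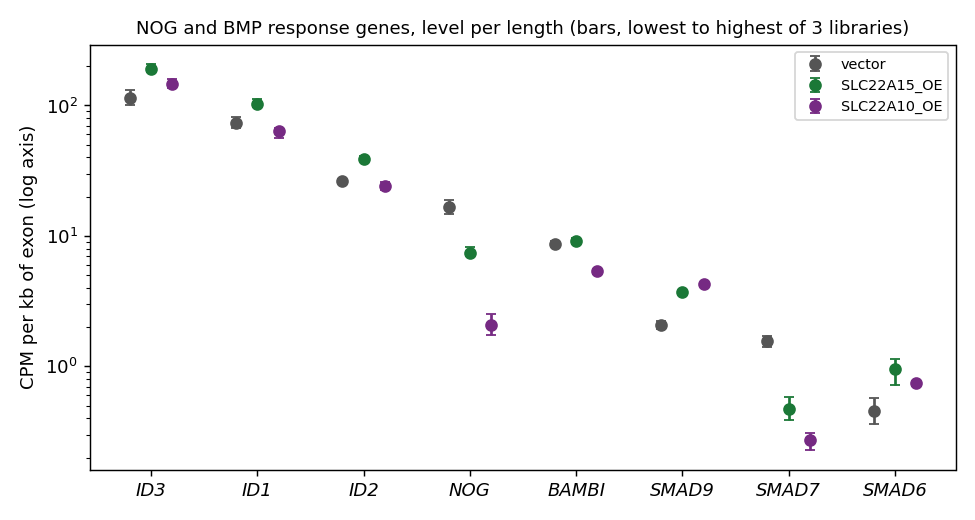
Level per length in CPM per kb of exon (vertical log axis) of NOG and the 7 BMP response genes (horizontal axis, in the order of vector) in the 3 groups. Points are group means and bars run from the lowest to the highest of 3 libraries. NOG is at 16.6 CPM per kb in vector, 7.43 in SLC22A15_OE and 2.09 in SLC22A10_OE, a wider span on this axis than that of any ID gene.

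Genes with the profile most like that of NOG were sought among tested genes with a group mean of at least 5 CPM, by the root mean square difference of log2(CPM + 1) from vector over the 9 libraries. The nearest were CTGF at 0.165, NT5E at 0.174, BNC1 at 0.251, CAV1 at 0.267 and TMEM158 at 0.324. CTGF, a secreted matricellular protein, was at 16.1 ± 0.752 CPM in vector, 1.82 ± 0.308 in SLC22A10_OE and 8.28 ± 1.02 in SLC22A15_OE. For ID1 the nearest were TONSL at 0.0636, RABEP2 at 0.0663, PHKG2 at 0.0830, STAG3L3 at 0.0841 and BOP1 at 0.0905, none of them among the listed pathway genes. These likenesses share the libraries and their depth and are given with no test.

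Around these genes, a list of 78 other BMP pathway genes by role gave 53 with values and 49 tested. Their calls are limma tests with Benjamini-Hochberg adjustment over all genes. In SLC22A10_OE against vector 21 rose, 17 fell and 11 did not pass, so that 77.6% were called where 67.2% of all genes were, with a median log2 fold change of -0.01 beside 0.00 for all genes. In SLC22A15_OE 6 rose, 11 fell and 32 did not pass, or 34.7% called against 20.4% of all genes (median -0.01, all genes 0.01). Between the lines 11 were higher and 21 lower in SLC22A15_OE, 65.3% called against 62.9% of all genes, and centring turned these into 21 and 19.

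Of 6 extracellular antagonists other than noggin tested, 3 were higher and 2 lower in SLC22A10_OE. Of all genes, 34.7% were higher and 32.5% lower there. CHRD (chordin, which binds BMPs as noggin does) rose from 2.46 ± 0.684 to 9.31 ± 1.72 CPM in SLC22A10_OE (log2 fold change 1.58, SE 0.16, adjusted p = 2.3e-06) and was at 2.40 ± 0.518 CPM in SLC22A15_OE (adjusted p = 0.953). FSTL1, a follistatin-like secreted protein, rose from 34.4 to 88.6 CPM in SLC22A10_OE and to 42.1 in SLC22A15_OE (adjusted p = 8.83e-10 and 0.00406). CRIM1, a membrane protein with chordin-like repeats, fell from 383 CPM to 242 and 305 (adjusted p = 1.15e-08 and 4.46e-05). NOG and CHRD were on opposite sides of vector in SLC22A10_OE. Of the proteases that cut chordin, BMP1 and TLL1 rose in SLC22A10_OE, and BMP1 also in SLC22A15_OE, from 13.5 to 18.0 CPM (adjusted p = 0.0173, 0.0556 to 0.0728 without vector 2, vector 3 or SLC22A15_OE 1).

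Among ligands other than BMP2 and BMP4, 2 of 5 rose and 2 fell in SLC22A10_OE, where 67.2% of all genes were called. BMP6 fell from 2.49 ± 0.586 to 0.954 ± 0.207 CPM (adjusted p = 0.000134). BMP8A fell and BMP8B rose, but they are near-identical copies between which reads can be split, so their values are uncertain. Of 7 receptors 4 fell and 2 rose in SLC22A10_OE (67.2% of all genes were called), and 3 fell in SLC22A15_OE (20.4% of all genes). The last 3 include ACVR2A, a type II receptor, which went from 20.7 to 16.2 CPM (adjusted p = 0.0249), and whose adjusted p was 0.0524 to 0.121 without vector 2, vector 3 or any 1 of the SLC22A15_OE libraries and 0.0528 with 2 groups in the fit. BMPR1B, a type I receptor, fell from 5.01 CPM to 2.41 and 3.26, and ACVR1, another, from 18.8 to 12.9 and 13.0 (adjusted p = 5.59e-05 and 0.000327 for ACVR1). ACVR2B, a type II receptor, rose from 13.3 to 27.9 CPM in SLC22A10_OE (adjusted p = 2e-07), and BMPR1A, at 41.9, 41.6 and 42.5 CPM, did not pass (adjusted p = 0.948 and 0.889). RGMB, a BMP co-receptor, fell from 155 ± 4.67 CPM to 69.0 ± 1.38 and 74.2 ± 0.885 (log2 fold changes -1.16 and -1.05, adjusted p = 3.74e-10 and 6.2e-09), while its relative RGMA rose from 1.55 to 5.90 CPM in SLC22A10_OE (adjusted p = 7.39e-07).

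SMAD1 and SMAD5, which carry the signal with SMAD9, did not pass in any comparison, with SMAD1 at 18.7, 18.8 and 20.4 CPM and SMAD5 at 216, 210 and 217 CPM. SMAD4, which joins them, was at 140 CPM in SLC22A10_OE against 156 in vector (adjusted p = 0.0137, 0.0537 without vector 2). It did not pass in the other comparisons. SMURF2, a ubiquitin ligase that works with SMAD7, fell from 315 ± 7.95 CPM to 161 ± 3.12 in SLC22A10_OE and 223 ± 4.95 in SLC22A15_OE (adjusted p = 7.35e-10 and 2.26e-06). CTDSP2, a phosphatase of SMADs, rose from 86.4 to 176 CPM in SLC22A10_OE (adjusted p = 6.69e-09).

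Of 9 other BMP targets tested, 4 rose and 4 fell in SLC22A10_OE and 2 rose and 1 fell in SLC22A15_OE, where 67.2% and 20.4% of all genes were called. GATA2 shared the group order of ID1 and ID2, at 119 ± 11.9 CPM in vector, 84.8 ± 6.47 in SLC22A10_OE (log2 fold change -0.48, adjusted p = 0.000101) and 170 ± 11.9 in SLC22A15_OE (0.51, adjusted p = 0.000316). RUNX2, a bone transcription factor, fell from 5.14 CPM to 1.98 and 2.64 (adjusted p = 6.56e-06 and 0.000581). JUNB rose in SLC22A10_OE from 29.5 to 44.9 CPM (adjusted p = 0.000255). For GATA2 and JUNB, as for ID1 and ID3, the highest library of each group was the one with little mitochondrial ribosomal RNA. None of the 9 had the separated order opposite to NOG, which 7.72% of all genes had. RUNX2 had that of NOG, as did 6.39% of all genes, and nothing is read from these counts. TCF3 and TCF12, the E proteins tested, did not pass in SLC22A10_OE. TCF12 was lower in SLC22A15_OE, at 81.0 CPM against 90.7 in vector (log2 fold change -0.16, adjusted p = 0.0482), a call that was lost without any 1 of 7 libraries, all but vector 1 and SLC22A15_OE 2 (adjusted p = 0.0584 to 0.18), and with no filter, with 2 groups in the fit or with a replicate block (adjusted p = 0.0516 to 0.0901).

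**Figure D4:**
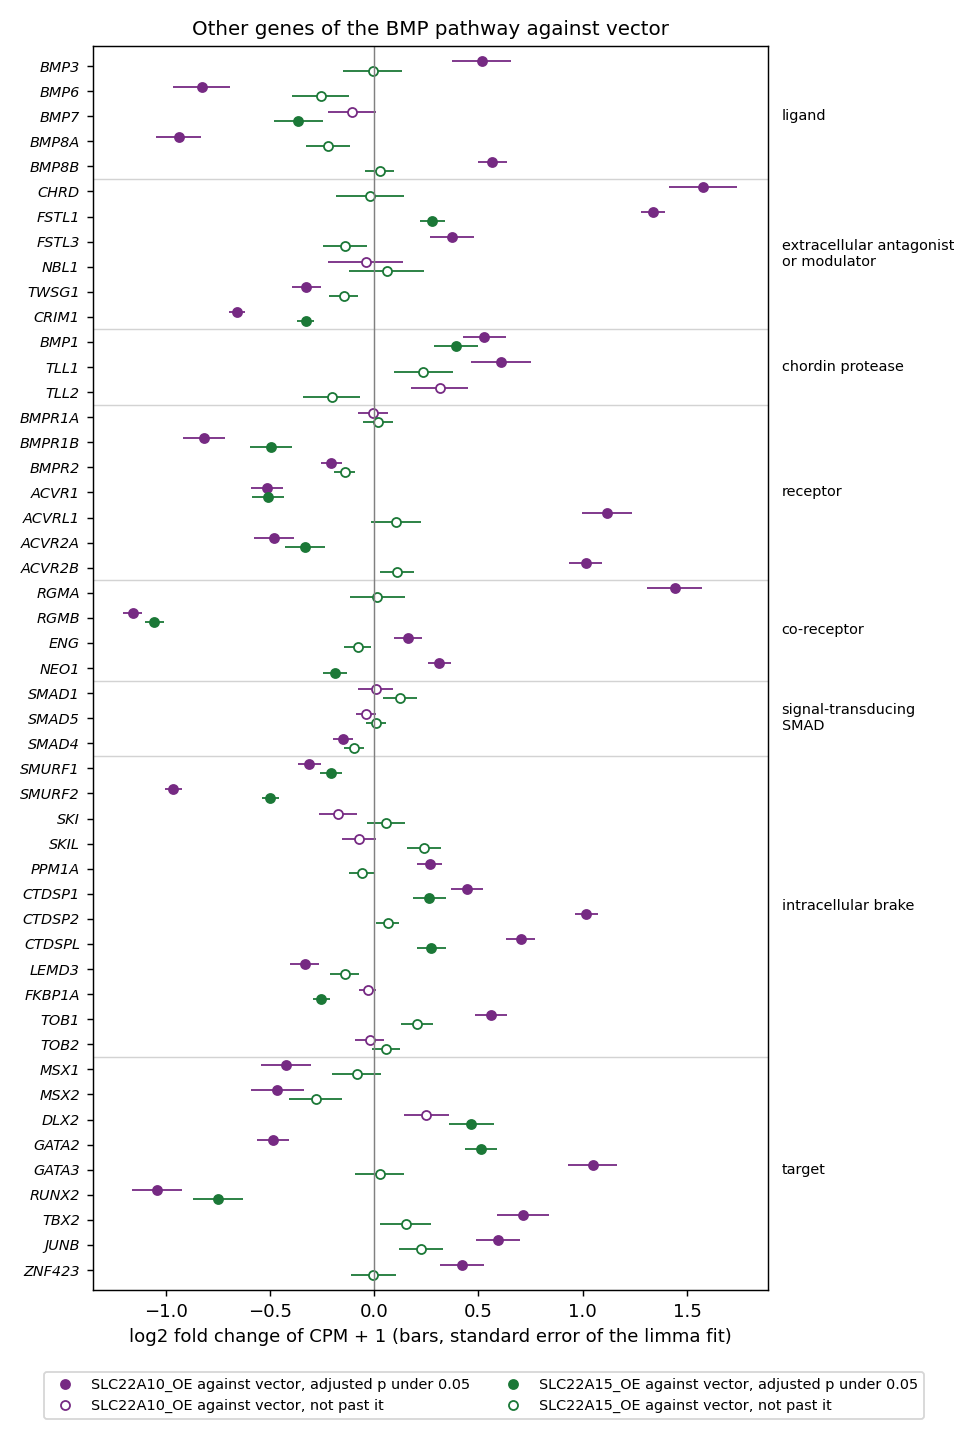
Log2 fold change of CPM + 1 against vector (horizontal axis) for the 49 tested BMP pathway genes other than those of the chosen set, grouped by role (vertical axis). Points are estimates with standard errors, filled where the adjusted p is under 0.05. CHRD, FSTL1 and RGMA lie farthest right and RGMB, RUNX2 and SMURF2 farthest left in SLC22A10_OE.

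SMAD7 and BAMBI also answer to TGF-beta, the related pathway that runs through SMAD2 and SMAD3, and its genes were set beside them. Of 17 tested, 6 rose and 8 fell in SLC22A10_OE (82.4% called, against 67.2% of all genes), and 8 fell and 9 did not pass in SLC22A15_OE (47.1% called, against 20.4%). PMEPA1, a target that feeds back on the pathway, fell from 40.2 ± 2.91 CPM to 24.5 ± 2.98 in SLC22A10_OE (log2 fold change -0.70, SE 0.09, adjusted p = 1.13e-05) and was at 33.5 ± 1.56 CPM in SLC22A15_OE (adjusted p = 0.0541). PMEPA1 had the separated order of NOG and SMAD7, as did 6.39% of all genes. BHLHE40, another target, rose in SLC22A10_OE and fell in SLC22A15_OE, from 13.2 CPM to 22.8 and 8.92 (adjusted p = 3.98e-05 and 0.00276), as did TGFB1, a ligand, from 30.8 to 42.1 and 21.6 CPM (adjusted p = 0.00325 and 0.00863).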

How the data were processed

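RNA of 9 PANC-1 libraries (3 a group) was sequenced with a strand-specific kit after removal of ribosomal RNA, per the labels' protocols. The authors deposited CPM per gene and library. The submitters' processing notes name edgeR and the builds hg38 and mm9 without roles. With the aligner and counter not given in the sources used here, strand use in counting is unknown. The tables of comparisons that the authors deposited, with log2 fold changes and p-values per the file headers, served only to pair Entrez numbers with symbols, and 187 of 16750 genes had none. Whole reads were recovered from the deposited CPM (100% of values within 0.1 read), which gave the library totals.

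The test was limma 3.58.1 (R 4.3.3) on log2(CPM + 1), with a trended prior variance and 1 fit of the 9 libraries (6 residual degrees of freedom). A gene was tested if 3 or more libraries reached 1 CPM, which held for 14554. P-values were two-sided with Benjamini-Hochberg adjustment over these genes, at a threshold of 0.05, in 3 comparisons. The procedure was also run on simulated counts with few changed genes and the same spread for all genes. Library differences in mitochondrial ribosomal RNA were not simulated, so that run does not cover them. The alternatives were pseudocounts of 0.25 and 0.1 CPM, no filter or 5 CPM, median centring, 2 groups in the fit, edgeR 4.0.16 on the recovered reads, a replicate block, a term for little mitochondrial ribosomal RNA (a share more than 2-fold below the median of the libraries) and leaving out each library. The chosen genes and the lists were picked with earlier results of these data known. Pathway genes were named where past the threshold in some comparison with a group mean of at least 1 CPM, and receptors and signal-transducing SMADs of the BMP list in any case. Of these 63 genes, part is named in the text and the others are given by counts. Deviations from the group means of same-numbered libraries correlated over 0.1 in all 3 pairs of vector and SLC22A15_OE (0.57, 0.31 and 0.19). Some pairs of unlike number did so too, and the labels do not say that the numbers pair libraries. Gene positions and exon lengths came from GENCODE release 29, and promoters and their build from RefSeq.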

Additional observations from a re-analysis of the deposited data

How the results depend on the processing

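None of the 24 fold changes of the 8 genes changed sign under the 19 alternatives, and neither did any called fold change among the 189 of the named pathway genes. In SLC22A10_OE against vector, NOG ranged from -2.98 to -2.52 on the log2 scale, SMAD7 from -2.52 to -1.78, ID1 from -0.32 to -0.11 and ID3 from 0.23 to 0.46. In SLC22A15_OE against vector ID1 ranged from 0.41 to 0.56 and ID3 from 0.64 to 0.84. Over the alternatives 5 to 8, 6 to 7 and 6 to 7 of the 8 genes were past the threshold in SLC22A10_OE against vector, SLC22A15_OE against vector and between the lines. As the 8 genes were chosen with these libraries in view, such calls are no test of them. ID1 and ID2 were not past it in SLC22A10_OE in the main fit. Both were past it with centring, with the term for little mitochondrial ribosomal RNA, without SLC22A10_OE 3 and without the 3 libraries low in that RNA. The number of genes called in SLC22A15_OE against vector rose from 2966 to 5608 with that term and to 4494 without those libraries, an alternative added after seeing the data. EdgeR's quasi-likelihood test on the recovered reads called 9742, 2982 and 9133 genes, where limma called 9775, 2966 and 9158. Leaving out 1 library gave 2074 to 3526 there, and 12 to 20 of the other BMP pathway genes against 17. SMAD6 had no value under the filter of 5 CPM.

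Deviations of same-numbered libraries correlated at -0.41 to 0.57. They were over 0.1 in all 3 pairs of vector and SLC22A15_OE and in 2 of the 6 pairs with SLC22A10_OE. Libraries of unlike number also correlated: vector 2 did so at 0.35 with SLC22A15_OE 3 and at 0.31 with SLC22A15_OE 2. The 3 pairs of libraries with little mitochondrial ribosomal RNA, vector 1 with SLC22A15_OE 1 among them, correlated at 0.48 to 0.57. Whether the numbers pair the libraries therefore cannot be told. With the number as a replicate block, 9688, 2781 and 9111 genes were called against 9775, 2966 and 9158, 6, 7 and 6 of the 8 genes were past the threshold (SMAD9 lost between the lines), and 38, 17 and 33 other BMP pathway genes were called. In SLC22A15_OE against vector NEO1, TGIF1 and TCF12 then lost their call and SKIL gained one, and no other call of a named pathway gene changed there. Depth limits SMAD6 and SMAD7 most, with 184 and 125 reads in their lowest groups.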
